A study of Mus musculus with 4 samples.

Results

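A set of 1752 genomic regions carried a called peak of acetylated histone H4 in both libraries of HDAC3 KO macrophages and in neither library of wt macrophages. They are called KO-only regions here. Peaks of the 4 lists that overlapped or touched were merged into 62481 regions, and the KO-only regions are the 2.80% of these whose calls had that pattern. Acetylation had been mapped by ChIP-seq, the sequencing of DNA pulled down with an antibody to the chromatin mark, in primary bone marrow-derived macrophages of C57BL/6 mice on day 7 of differentiation. The groups were HDAC3 -/- cells (HDAC3 KO) given lipopolysaccharide (LPS, a cell wall molecule of bacteria that activates macrophages) at 100 ng/ml for 4 h, HDAC3 -/- cells left untreated, HDAC3 +/- cells with the same LPS treatment, and HDAC3 +/- cells left untreated. The HDAC3 +/- cells are the ones labelled wild type (wt), so they carry 1 intact allele and not a full pair, and how the gene was deleted is not given in the sources used here. Each group had 1 library. Differences between libraries therefore have no replicate check, and no p-value across conditions is given.

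Acetyl groups on the tail of histone H4 mark open chromatin at active promoters and enhancers. HDAC3 is a histone deacetylase that works as the catalytic subunit of the NCoR and SMRT corepressor complexes, which transcription factors bring to their sites to keep nearby genes low. In macrophages these complexes hold part of the inflammatory program in check before a stimulus, and HDAC3 also has roles there that do not depend on its catalytic activity. The antibody recognised acetylated H4 in general, so the acetylated residue is not resolved. The gene table used here is on another genome build than the peaks, mm9, so no gene name, promoter or exon is attached to a region, the Hdac3 locus was not examined, and macrophage marker genes were not checked.

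KO-only regions were chosen by their peak calls in all 4 lists, so their presence in HDAC3 KO, their absence in wt, their scores and their lengths are a description and not a finding. Of the 23198 regions called in both HDAC3 KO lists, 1752 (7.55%, exact 95% interval 7.22 to 7.90%) had no wt peak. A further 972 (4.19%) had a peak in LPS-treated wt only, 2647 (11.4%) in untreated wt only, and 17827 (76.8%) in both wt lists. The mirror set, called in both wt lists and in neither HDAC3 KO list, held 1260 of 22229 regions (5.67%), or 2.02% of all merged regions. Regions called in a single HDAC3 KO list and no wt list were more numerous: LPS-treated HDAC3 KO alone had 9054 and untreated HDAC3 KO alone had 5164. Intervals here and elsewhere cover counting error only, since neighbouring regions are not independent.

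KO-only regions were small and weakly scored beside other regions called in HDAC3 KO. Scores are those the authors gave each peak, on a scale that is not given and may differ between lists, and start near 50 in each of the 4 lists. Medians are read within a list, and the lower of a region's 2 scores serves below only to order and group regions. In LPS-treated HDAC3 KO the KO-only regions had a median score of 93.3 (interval 90.9 to 97.8), against 280 for all regions called in both HDAC3 KO lists. In untreated HDAC3 KO the medians were 80.0 (78.2 to 81.6) for the KO-only regions and 203 for all regions called in both HDAC3 KO lists. The lower quartile of KO-only scores was 65.8 with LPS and 61.8 without LPS in HDAC3 KO, close to the lowest score that was listed. Peaks covered a median of 694.5 bp of a KO-only region in LPS-treated HDAC3 KO and 562.5 bp in untreated HDAC3 KO. Over all regions called in both HDAC3 KO lists these medians were 1290 bp in LPS-treated and 1086 bp in untreated cells. The rule itself favours short regions, since a longer one has more room to meet a wt peak.

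Few KO-only regions were scored high in both HDAC3 KO libraries. A score of at least 100 in both lists was reached by 343 KO-only regions (19.6%), while 67.9% of all regions called in both HDAC3 KO lists reached it. At a score of at least 200 in both lists the shares were 3.42% of KO-only regions (60 regions) and 42.0% of all regions called in both lists. A score of at least 500 in both lists was found in 3 KO-only regions. Set against each list's own median, 165 KO-only regions were at or above it in both HDAC3 KO lists, 315 in the LPS-treated list alone, 261 in the untreated list alone and 1011 in neither. Most of the set therefore lay in the lower part of both lists.

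The share of regions that lacked a call in the other genotype fell steeply with score, in both directions. Where the lower of the 2 HDAC3 KO scores was from 50 to below 60, 594 of 2218 regions (26.8%, interval 24.9 to 28.7%) were KO-only. From 100 to below 150 the share was 6.06% (5.30 to 6.90%), and from 200 to below 300 it was 1.17% (0.831 to 1.61%). The mirror share, for regions called in both wt lists and no HDAC3 KO list, was 20.8% (19.1 to 22.5%), 3.87% (3.25 to 4.57%) and 0.564% (0.335 to 0.890%) in the same ranges of the lower wt score. Bins of the same score need not hold peaks of the same strength in HDAC3 KO and wt, so the shares are not compared between the genotypes.

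**Figure D1:**
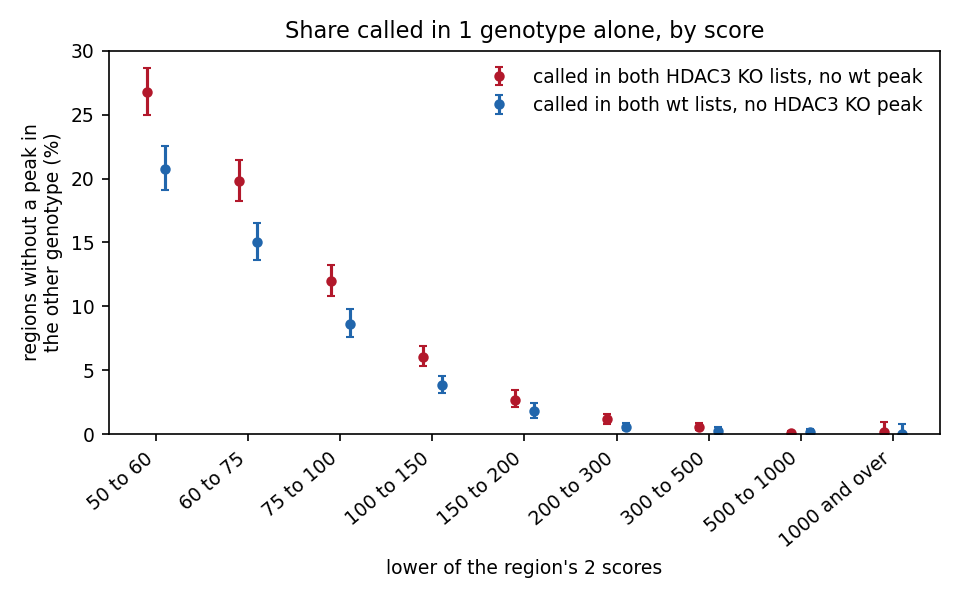
Share of regions called in both lists of a genotype that had no peak in either list of the other genotype (%), by the lower of the region's 2 scores. Points are shares and bars are exact 95% intervals for counting error. Both genotypes fall from over 20% in the lowest range of scores to under 1% from a score of 300 upwards.

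In most KO-only regions the LPS-treated and untreated HDAC3 KO peaks marked largely the same bases, as they did over all regions called in both HDAC3 KO lists. The shared part had a median of 451 bp, and it made up a median of 99.2% of the shorter of the covered lengths, against 99.0% over all regions called in both HDAC3 KO lists. In 829 KO-only regions (47.3%) the shorter coverage lay wholly inside the longer, against 44.8%. Less than 50% of it was shared in 103 KO-only regions (5.88%), a larger share than the 1.65% of all regions called in both HDAC3 KO lists. Each library had a single peak in 1559 KO-only regions (89.0%), against 63.7% over all regions called in both lists, where wt peaks can also join HDAC3 KO peaks. LPS-treated HDAC3 KO covered the longer part in 1151 of the 1752 regions (65.7%, interval 63.4 to 67.9%), near the 66.2% for all regions called in both HDAC3 KO lists.

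Scores in the HDAC3 KO libraries were only weakly related across the KO-only regions. Across the 1752 KO-only regions, Spearman's rho between LPS-treated and untreated scores was 0.18, and that between covered lengths was 0.38. Over all 23198 regions called in both lists the values were 0.60 for scores and 0.70 for lengths. These are correlations across regions, which share their libraries, and a set limited to low scores has a narrower range to correlate over. The highest LPS-treated score, 3100, belonged to chromosome X, 166409909 to 166415621, which scored 178 in untreated HDAC3 KO and covered 5713 bp with LPS and 2810 bp without. Exactly 3100 was also the score of a chromosome 11 peak in the LPS-treated HDAC3 KO list and of 5 untreated wt peaks. That value may therefore not be a graded measurement. The region at chromosome 1, 174519271 to 174521966, scored 1695 with LPS and 195 without LPS in HDAC3 KO. With the reverse balance, chromosome 6, 55225191 to 55227284, scored 74.3 with LPS and 1123 without LPS in HDAC3 KO. In contrast, the third highest untreated score, 1074 on chromosome 17, went with a high LPS-treated score of 1324. These regions were chosen after their values were seen.

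**Figure D2:**
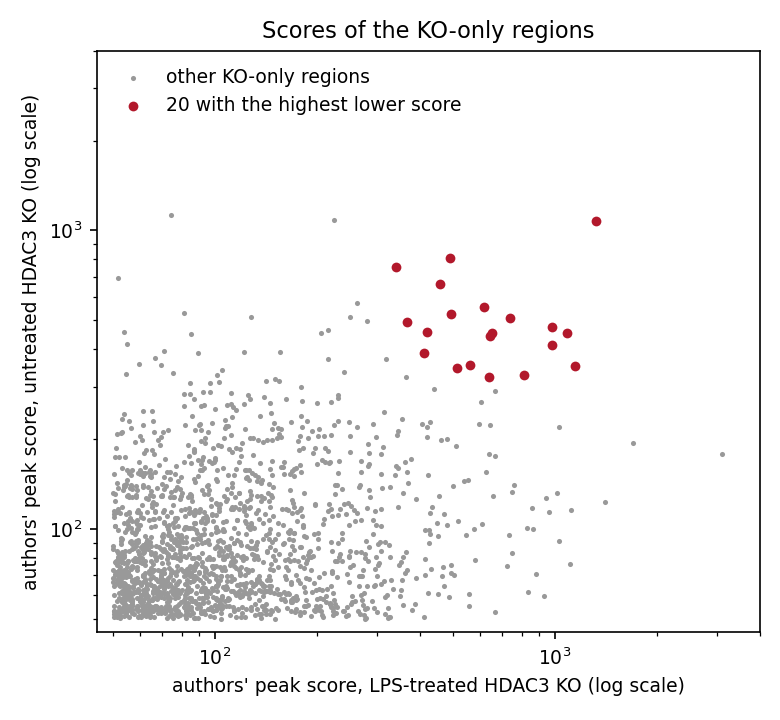
Authors' peak scores of the 1752 KO-only regions in LPS-treated (x) and untreated (y) HDAC3 KO, both on log scales. Grey points are regions and red points are the 20 with the highest lower score. Most points lie below 200 on both axes, and the most separate red point, with 1324 with LPS and 1074 without LPS in HDAC3 KO, is a region on chromosome 17.

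The 20 KO-only regions with the highest lower score of the pair lay on 11 chromosomes and are the clearest cases of a call in HDAC3 KO alone. Their scores ran from 341 to 1324 with a median of 628 in LPS-treated HDAC3 KO, and from 323 to 1074 with a median of 456 in untreated HDAC3 KO. Peaks covered medians of 1456 bp with LPS and 1334.5 bp without LPS in HDAC3 KO, and at least 90.6% of the shorter coverage was shared in each of the 20. The nearest wt peak was farther than 5 kb away in 15 of them, and in 643 of all 1752 KO-only regions. That nearest wt peak had a median score of 82.0 over the 20 regions, with a range of 51.1 to 723. Over all KO-only regions the median was 95.5. Both medians pool the wt lists, whose scales may differ.

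First among them was chromosome 17, 33061069 to 33062935, with scores of 1324 with LPS and 1074 without LPS in HDAC3 KO. No wt peak lay within 20336 bp, and the 10 kb on either side held no peak of any library apart from 282 bp in LPS-treated HDAC3 KO. It is a solitary region. The next, chromosome 2, 129875049 to 129876070, scored 618 with LPS and 553 without LPS in HDAC3 KO and lay 79330 bp from the nearest wt peak. Another KO-only region stood 10 bp beside it. Chromosome 13, 114031693 to 114033371, scored 735 with LPS and 508 without LPS in HDAC3 KO, with no peak of any library in its flanks of 10 kb.

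Several of the 20 stood in stretches with no other acetylation call. Over all 1752 KO-only regions, 172 (9.82%) had no peak of any library in the flanks of 10 kb. The flanks of 10 kb on each side were free of peaks in all 4 libraries at chromosome 7, 105250669 to 105252873 (1087 with LPS and 453 without LPS in HDAC3 KO), and at chromosome 7, 4412281 to 4413415 (411 and 388 in the same order). The same held for chromosome 4, 130159624 to 130160737 (561 with LPS and 353 without LPS in HDAC3 KO). A second chromosome 7 region in that part of the chromosome, 105918589 to 105920469 (1148 with LPS and 353 without LPS in HDAC3 KO), was isolated in the same way. So were chromosome 13, 96264021 to 96265570 (810 with LPS and 328 without LPS in HDAC3 KO), and chromosome 14, 64224399 to 64226118 (638 with LPS and 323 without LPS in HDAC3 KO). These solitary calls were not accompanied by a weaker wt peak nearby: the closest wt peak lay between 14846 and 74081 bp away.

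A further 6 of the 20 were also more than 5 kb from a wt peak. Chromosome 2, 127349068 to 127350370, scored 490 with LPS and 809 without LPS in HDAC3 KO, 59552 bp from a wt peak. Chromosome 2, 158131578 to 158132896, scored 341 with LPS and 752 without LPS in HDAC3 KO, and chromosome 4, 42892497 to 42894167, scored 366 and 495 in that order. Scores of different lists are not on a common scale, so such a pair of scores does not measure a change with LPS. Chromosome 11, 59216735 to 59218289, scored 652 with LPS and 452 without LPS in HDAC3 KO. On chromosome 9, the region at 60879173 to 60880768 scored 983 with LPS and 413 without LPS in HDAC3 KO, and the one at 21968900 to 21970155 scored 421 and 458 in that order.

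The other 5 of the 20 had a wt peak within 5 kb. Chromosome 4, 154252135 to 154253632, scored 978 with LPS and 476 without LPS in HDAC3 KO and lay 673 bp from a wt peak scored 62.4. Chromosome 1, 36186667 to 36188579, scored 458 with LPS and 664 without LPS in HDAC3 KO, with a wt peak scored 67.4 at 778 bp. Near these 2 regions acetylation had thus been called in wt as well, within 1 kb and with low scores. At the chromosome 4 region the flanks of 10 kb held no HDAC3 KO peak, against 440 bp with LPS and 385 bp without LPS in wt. At the chromosome 1 region they held 4164 bp with LPS and 3347 bp without LPS in HDAC3 KO, against 2932 and 0 bp in that order in wt. At the other 3 of the 5 the nearest wt peak was 2511 to 4358 bp away. At chromosome 6, 48981429 to 48982909 (645 with LPS and 444 without LPS in HDAC3 KO) the flanks of 10 kb held 10776 bp of peaks with LPS and 13170 bp without LPS in HDAC3 KO, against 964 bp with LPS and 4503 bp without LPS in wt. Chromosome 9, 16116556 to 16117209 (494 with LPS and 525 without LPS in HDAC3 KO), had 7006 and 4604 bp of flanking peaks in LPS-treated and untreated HDAC3 KO, against 0 and 1009 bp in LPS-treated and untreated wt. The last of the 5 was chromosome 16, 57389334 to 57391224 (517 with LPS and 346 without LPS in HDAC3 KO), 2511 bp from a wt peak. Its flanks held 0 bp with LPS and 191 bp without LPS in HDAC3 KO, against 216 and 0 bp in that order in wt. Over all 20 regions, HDAC3 KO had the longer flank coverage in both treatments at 8, and wt at 1.

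Longest coverage picked out other regions than high scores did. Of the 5 KO-only regions with the longest coverage in the HDAC3 KO library where it was shorter, none was among the 20. They were the chromosome X region already named, chromosome 1, 155595162 to 155597654 (2469 bp with LPS and 2268 bp without LPS in HDAC3 KO), chromosome 8, 107862254 to 107865194 (2151 and 2856 bp in that order), chromosome 7, 105530767 to 105534729 (2139 and 3906 bp), and chromosome 11, 98814626 to 98817480 (2779 and 1899 bp). Their nearest wt peaks lay 262 to 19429 bp away. The chromosome 7 region scored 224 with LPS and 1082 without LPS in HDAC3 KO, and with the regions at 105250669 and 105918589 it made 3 named KO-only regions within 1 Mb of that chromosome.

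Some KO-only regions lay close to the edge of the rule. Nearness to the edge was read as a gap to a wt peak inside the rule and as overlap outside it. Those measures are unlike, so the sides are not compared. Among KO-only regions, the smallest gaps to a wt peak were 1 bp at chromosome 7, 51177411 to 51178102, 2 bp at chromosome 15, 101020258 to 101021228, and 4 bp at chromosome 12, 101737130 to 101738010. Just outside the rule, among regions called in both HDAC3 KO lists, wt peaks overlapped HDAC3 KO peaks by only 20 bp at chromosome 7, 20517703 to 20518589, 53 bp at chromosome 6, 120416177 to 120417361, and 58 bp at chromosome 14, 31943631 to 31944866. Of the 21446 regions called in both HDAC3 KO lists and at least 1 wt list, 6 had a wt overlap of at most 100 bp. The lowest lower scores in the set were 50.07, 50.08 and 50.09, at regions on chromosomes 9, 4 and 3, so the score limit of the lists cut the set as well.

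Many KO-only regions lay near acetylation that wt cells also had. A wt peak stood within 500 bp of 453 KO-only regions (25.9%, interval 23.8 to 28.0%), within 5 kb of 1109 (63.3%, 61.0 to 65.6%) and within 50 kb of 1629 (93.0%, 91.7 to 94.1%). The median gap was 2416.5 bp. On the autosomes alone the share within 5 kb was 63.3%. It was 44.2% with a score limit at each list's median and 40.4% with a limit to 20000 peaks per list. With peaks joined across gaps of up to 500 bp it was 42.5%. By construction, the score limits also remove wt peaks, and the joining takes out regions with a wt peak within 500 bp. With all peaks the share was near the background: of all 15970 regions called in at least 1 HDAC3 KO list and no wt list, 62.3% had a wt peak within 5 kb, so KO-only regions did not stand apart in this. The mirror set lay farther off, with an HDAC3 KO peak within 5 kb of 47.5% (44.8 to 50.3%) of the 1260 wt-only regions. There the lists being searched were the HDAC3 KO ones, which differ from the wt lists in number and covered length. The most remote KO-only region from any wt peak was chromosome 10, 102831152 to 102831831, more than 2 Mb away, with low scores of 54.2 with LPS and 64.5 without LPS in HDAC3 KO.

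KO-only regions and regions of a single HDAC3 KO list differed more in nearness to regions called in all 4 lists. Such a region lay within 5 kb of 40.6% (38.3 to 43.0%) of KO-only regions, 35.3% (34.5 to 36.0%) of regions called in a single HDAC3 KO list and no wt list, and 24.8% (22.5 to 27.3%) of wt-only regions. These intervals cover counting error only and are no test between the sets. Median distances were 8709.5 bp for KO-only, 11795.5 bp for regions of a single HDAC3 KO list and 18599.5 bp for wt-only regions.

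**Figure D3:**
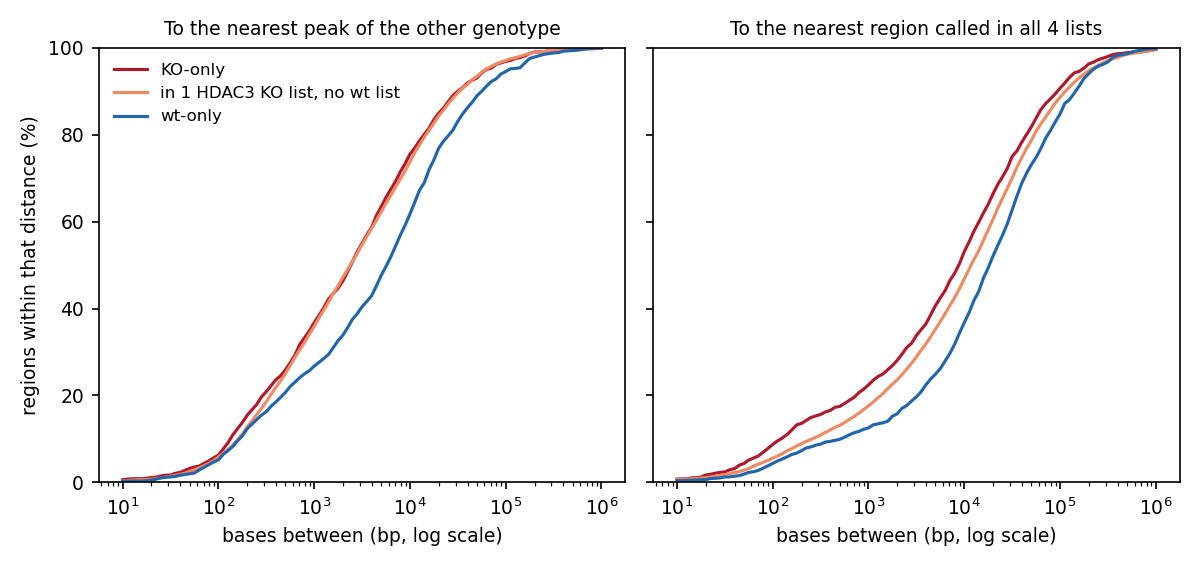
Cumulative share of regions (%) within a given number of bases (log scale) of the nearest peak of the other genotype (left) and of the nearest region called in all 4 lists (right), for KO-only regions, regions called in 1 HDAC3 KO list and no wt list, and wt-only regions. On the left the KO-only curve runs with that of the single HDAC3 KO lists, and on the right it lies above both others over most of the distances shown.

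The surroundings of KO-only regions were more widely covered by peaks in HDAC3 KO than in wt. The measure was the length covered by peaks in the 10 kb on either side of a region, with the region itself left out, which the rule did not use. Around KO-only regions the mean flank coverage was 3.23 kb in LPS-treated HDAC3 KO, 2.44 kb in untreated HDAC3 KO, 1.52 kb in LPS-treated wt and 1.61 kb in untreated wt. HDAC3 KO had the longer flank coverage in both treatments at 967 of 1752 KO-only regions (55.2%, interval 52.8 to 57.5%), against 29.3% of all 62481 merged regions. Wt had the longer flank coverage in both treatments at 67 (3.82%, 2.98 to 4.83%), against 10.5% of all merged regions. Calls of acetylation beyond the region itself thus leaned the same way as the call that defined it. In 172 KO-only regions (9.82%) no library had a peak in the flanks, against 15.6% of all merged regions and 21.6% of wt-only regions. Empty flanks were thus less frequent around KO-only regions.

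Around wt-only regions the mean flank coverage was 1.23 kb in LPS-treated HDAC3 KO, 0.894 kb in untreated HDAC3 KO, 1.29 kb in LPS-treated wt and 1.19 kb in untreated wt. HDAC3 KO had the longer flank coverage in both treatments at 12.9% of wt-only regions and wt at 22.9%, against 29.3% and 10.5% of all merged regions. The flanks of the mirror set thus leaned towards wt, while those of all merged regions leaned towards HDAC3 KO. The LPS-treated HDAC3 KO list covered 50.4 Mb in all, against 36.4 Mb in untreated HDAC3 KO, 37.4 Mb in LPS-treated wt and 35.4 Mb in untreated wt. When the flank lengths were scaled by what each list covered in total, 46.2% of KO-only regions had the longer HDAC3 KO flank in both treatments, against 20.3% of all merged regions. With peaks inside other KO-only and wt-only regions left out of the flanks, the shares were 48.2% of KO-only regions and 27.0% of all merged regions. Read depth and the efficiency of each immunoprecipitation are unknown, and with 1 library per group they cannot be told apart from genotype.

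**Figure D4:**
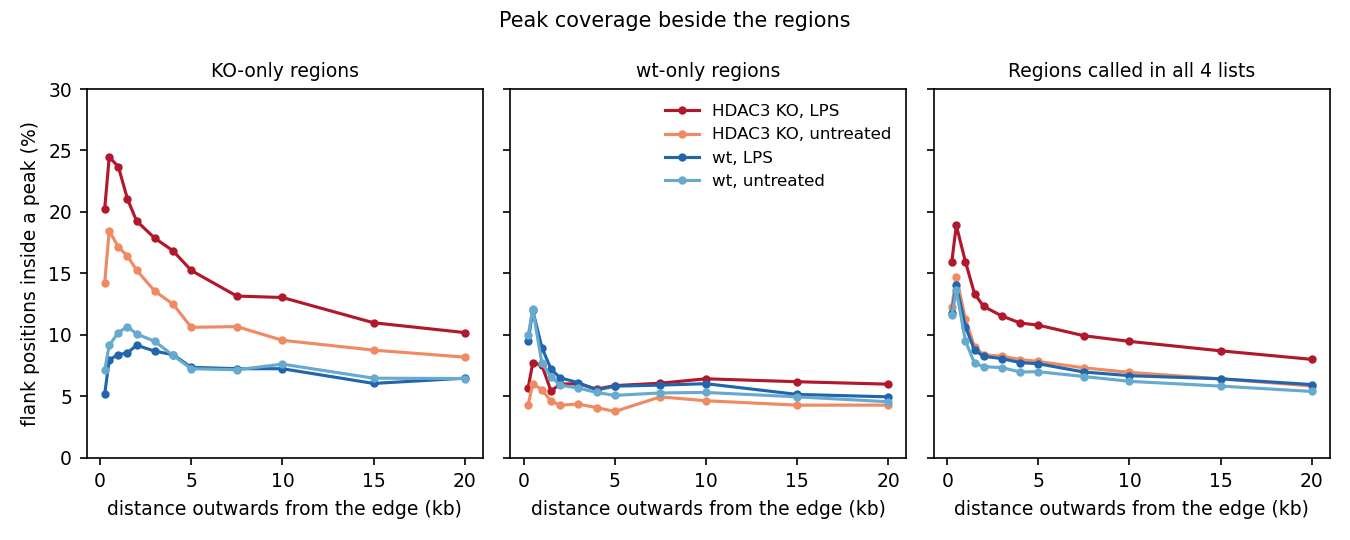
Share of positions inside a peak (%) at a given distance (kb) outwards from either edge of KO-only regions (left), wt-only regions (middle) and regions called in all 4 lists (right), for each library. At 500 bp from KO-only regions the shares are 24.5% with LPS and 18.5% without LPS in HDAC3 KO, against 7.99% with LPS and 9.16% without LPS in wt.

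With distance the difference narrowed. At 5 kb from the edge of KO-only regions a peak covered the position in 15.2% of cases with LPS and 10.6% without LPS in HDAC3 KO, against 7.36% with LPS and 7.25% without LPS in wt. At 20 kb these shares were 10.2% with LPS and 8.19% without LPS in HDAC3 KO, against 6.48% with LPS and 6.45% without LPS in wt. For regions called in all 4 lists, the shares at 500 bp were 18.9% with LPS and 14.7% without LPS in HDAC3 KO, against 14.1% with LPS and 13.6% without LPS in wt. The excess in HDAC3 KO was thus wider beside KO-only regions than beside regions called everywhere.

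Neighbours of KO-only regions were of their own kind more often than over all merged regions, though regions called in a single HDAC3 KO list or in all 4 lists were the more frequent neighbours. The nearest other merged region was itself KO-only for 196 of the 1752 (11.2%, interval 9.75 to 12.8%), while over all merged regions the nearest one was KO-only in 2.97%. It was called in a single HDAC3 KO list for 588 (33.6%, 31.4 to 35.8%), against 22.5% over all merged regions, and in a single wt list for 136 (7.76%, 6.55 to 9.12%), against 18.2%. A region called in all 4 lists was the nearest for 25.4% of KO-only regions and 28.3% of all merged regions. The mirror set had the same lean: the nearest region of wt-only regions was itself wt-only in 5.71%, against 1.90% over all merged regions. It was called in a single wt list for 35.6% of wt-only regions, against 18.2% over all merged regions. KO-only regions were also close to their neighbours, with a median gap of 276.5 bp, against 484 bp over all merged regions. When peaks up to 500 bp apart were joined before the rule was applied, 1108 KO-only regions were left.

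Another KO-only region lay within 20 kb of 525 KO-only regions (30.0%, interval 27.8 to 32.2%), against 12.03% of all merged regions. The share of KO-only regions was 17.5% when peaks up to 500 bp apart were joined first. No share over all joined regions was computed to set beside it. Among the 1260 wt-only regions 15.1% (13.1 to 17.2%) had another wt-only region within 20 kb, though a smaller set is sparser in itself. Linked across gaps of up to 20 kb, the 1752 regions formed 1227 single regions and 215 groups of 2 or more. Groups of 5 or more numbered 11 and held 64 regions.

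The group with the most regions lay at chromosome 7, 103929638 to 103999188, and held 9 KO-only regions over 69.6 kb. Peaks of all kinds in that span covered 14.2 kb in LPS-treated HDAC3 KO and 13.8 kb in untreated HDAC3 KO, against 1.18 kb in LPS-treated wt and 3.09 kb in untreated wt. The KO-only regions themselves supplied 6.10 kb with LPS and 6.42 kb without LPS in HDAC3 KO, and none in wt by the rule. Groups were picked for holding many KO-only regions, so that part of each difference was fixed in advance. The peaks of all kinds numbered 17 with LPS and 21 without LPS in HDAC3 KO, against 2 with LPS and 5 without LPS in wt. The KO-only regions among them were scored 50.5 to 500 with LPS and 55.2 to 227 without LPS in HDAC3 KO. Not every part of the span lacked wt acetylation: its strongest wt peak, at 103937606 to 103938842, scored 321 in untreated wt and began 186 bp beyond the end of a KO-only region.

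A denser group lay at chromosome 15, 77706868 to 77725664, with 7 KO-only regions in 18.8 kb. Peaks covered 10.0 kb with LPS and 8.03 kb without LPS in HDAC3 KO, against 0.894 kb with LPS and 0.565 kb without LPS in wt. Of the HDAC3 KO lengths, the group's KO-only regions supplied 7.05 kb with LPS and 6.05 kb without LPS. The strongest of its regions by the lower score, 77718622 to 77719835, scored 319 with LPS and 371 without LPS in HDAC3 KO. Another, 77706868 to 77708275, scored 598 with LPS and 225 without LPS in HDAC3 KO. Wt peaks inside the span were confined to 1 place, between 77712311 and 77713408, with scores of 52.2 to 156. The 50 kb on either side of this group was also more widely covered in HDAC3 KO, with 20.5 kb with LPS and 15.1 kb without LPS in HDAC3 KO, against 8.70 kb with LPS and 8.48 kb without LPS in wt.

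The third group, at chromosome 6, 52158739 to 52172838, had no wt peak at all in its 14.1 kb. Its 7 KO-only regions covered 6.78 kb with LPS and 5.36 kb without LPS in HDAC3 KO, and no other peak lay between them. Scores were moderate, from 86.3 to 250 with LPS and from 52.4 to 201 without LPS in HDAC3 KO. The widest of the 7, 52166775 to 52168718, scored 147 with LPS and 198 without LPS in HDAC3 KO. The nearest wt peak lay 15914 bp away. Here the surroundings did not differ as the group did: the 50 kb on either side held 4.68 kb of peaks with LPS and 5.47 kb without LPS in HDAC3 KO, against 4.41 kb with LPS and 4.39 kb without LPS in wt.

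**Figure D5:**
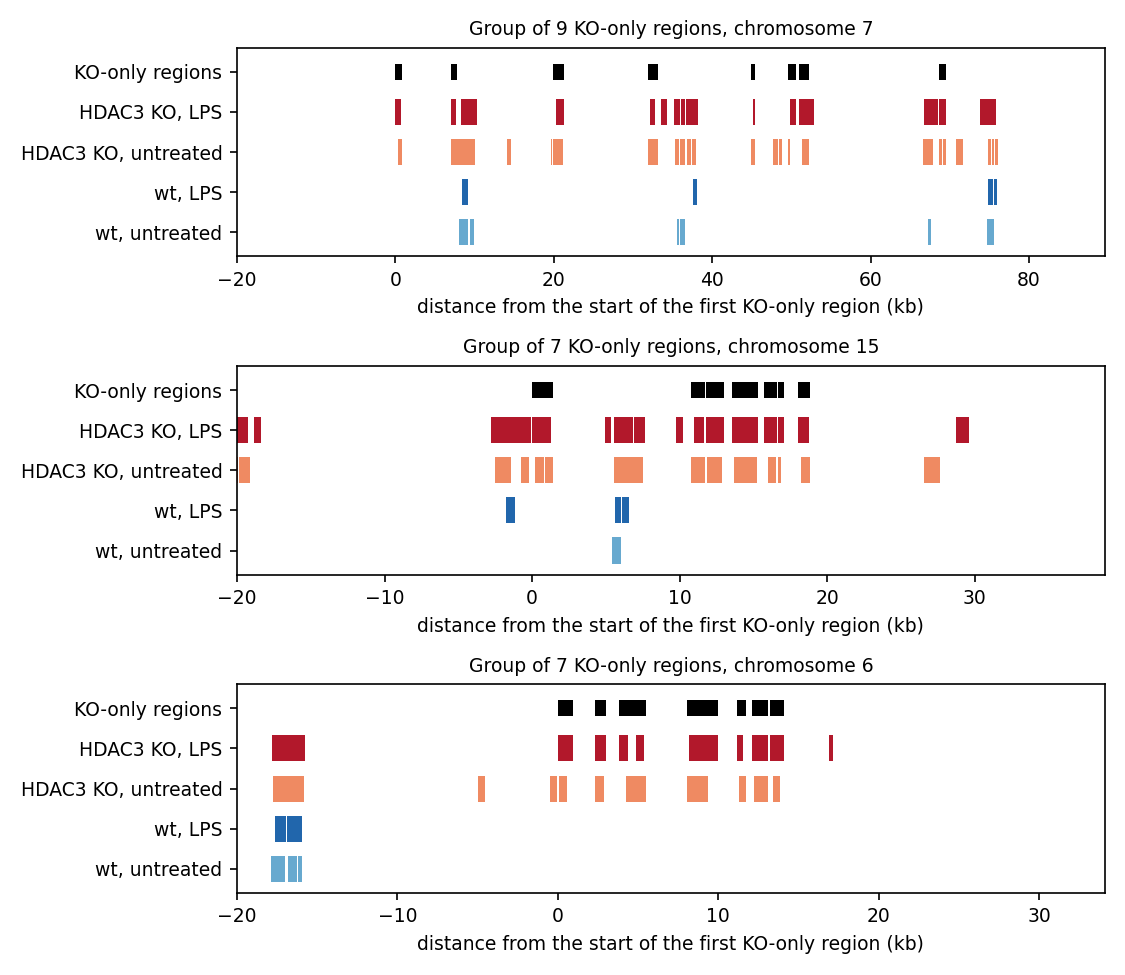
Peaks of each library (coloured bars) and KO-only regions (black bars) across the 3 groups with the most KO-only regions, by distance (kb) from the start of the first KO-only region of the group. In the chromosome 7 group 9 KO-only regions lie between stretches that wt libraries share in part, and in the chromosome 6 group no wt peak falls between the first and the last of 7 KO-only regions.

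The next group, and 1 of the 7 groups of 5 regions, combined KO-only regions with peaks common to both genotypes. At chromosome 9, 58384866 to 58428360, 6 KO-only regions lay in a span where peaks covered 14.7 kb with LPS and 11.7 kb without LPS in HDAC3 KO, against 2.33 kb with LPS and 2.49 kb without LPS in wt. Of the HDAC3 KO lengths, these KO-only regions supplied 6.31 kb with LPS and 4.94 kb without LPS. The group of 5 was taken as the one with the longest coverage in the HDAC3 KO library where it was shorter. At chromosome 11, 98786859 to 98817480, its 5 KO-only regions lay on either side of a region with strong wt peaks, the highest scored 2032 with LPS and 1157 without LPS in wt. Peaks covered 19.9 kb of this span with LPS and 13.5 kb without LPS in HDAC3 KO, against 8.41 kb with LPS and 6.39 kb without LPS in wt. The KO-only regions supplied 6.26 kb with LPS and 4.47 kb without LPS of the HDAC3 KO lengths. In the chromosome 11 group the KO-only regions thus flanked an acetylated stretch that wt cells also had.

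On the scale of whole chromosomes the set was spread widely. KO-only regions made up 5.65% (interval 4.53 to 6.96%) of the regions called in both HDAC3 KO lists on chromosome 5, the lowest share, and 10.2% (8.56 to 11.95%) on chromosome 9, the highest. Chromosome 12 followed with 9.66% (7.80 to 11.8%). The X chromosome had 28 of 464 (6.03%, 4.05 to 8.60%). A single KO-only region lay on unplaced sequence and none on the Y chromosome. Among 2063 windows of 1 Mb with a merged region, 850 held a KO-only region and 68 held 5 or more. In the windows with 10 KO-only regions, the highest number, these were 32.3% of the 31 regions called in both HDAC3 KO lists at 129 to 130 Mb of chromosome 2 and 19.6% of 51 at 140 to 141 Mb of chromosome 4. The window at 103 to 104 Mb of chromosome 7 had the highest share among the 10 windows with the most KO-only regions, 9 of 14 (64.3%), and all 9 belong to the group described there.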

How the data were processed

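Per the labels, each of the 4 ChIP libraries has its own peak list. Bowtie and the mm9 build are named in the submitters' processing notes, and per the file headers peaks were called with MACS against an input library; versions, settings and inputs are not given in the sources used here. The deposited score of each peak is the authors' value on a scale that is not given, and sequencing depth and input can both move it. Read depth is unknown, so a missing call does not show a lack of acetylation.

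Peaks overlapping or touching in any list were merged (62481 regions, the same number as with bedtools 2.31.1). A region's score in a list is its highest peak score there. Distances count the bases between regions, and coordinates are mm9, counted from 1. Shares carry exact (Clopper-Pearson) 95% intervals from scipy 1.17.1, and medians have 95% intervals from order statistics. No test across conditions was made, since 1 library per group gives no replicate error. Gene names, promoters, the planned gene lists and sequences of the regions need an mm9 reference and were not used here. Named regions were the 20 with the highest lower HDAC3 KO score, the 5 with the longest coverage in the HDAC3 KO library where it was shorter, the 5 groups with most regions across gaps of up to 20 kb (ties by the shorter covered length), the 3 nearest to the rule's edge on either side and the 3 with the lowest lower score; others are said to have been chosen after their values were seen. The regions, rules and comparisons were chosen with earlier results of these data known. The windows of 1 Mb, the remote region on chromosome 10 and the flank comparison were added after the data were seen. The counts were tested on simulated lists, where 6 of 6 quantities came back exactly over 60000 regions with 200 seeded as KO-only. Python 3.11.15 was used with pandas 2.3.3, numpy 2.4.6 and, for plots, matplotlib 3.10.9.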

Additional observations from a re-analysis of the deposited data

How the results depend on the processing

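No paired analysis was possible because each group had 1 library, and for the same reason no library could be left out. On the autosomes alone every recomputed value stayed within its interval or 1.5 times its count (1723 KO-only regions). Most values moved under 3 settings, given here in this order: a score limit at the median of each list, a limit to the 20000 peaks with the highest scores in each list, and peaks joined across gaps of up to 500 bp. KO-only regions numbered 764, 728 and 1108. Wt-only regions numbered 578 and 559 under the first of these settings and the next, and 1008 with joined peaks, within 1.5 times the 1260. A wt peak lay within 5 kb of 44.2, 40.4 and 42.5% of KO-only regions. Median covered lengths were 1217.5, 1306 and 753 bp in LPS-treated and 1007, 1056 and 594.5 bp in untreated HDAC3 KO. Median scores were 251 and 285 in LPS-treated HDAC3 KO (94.3 with joined peaks, within the interval) and 190, 205 and 82.3 in untreated HDAC3 KO. Another KO-only region lay within 20 kb of 20.8, 21.8 and 17.5%. A higher score limit removes low-scored peaks by construction, so it also turns regions with a weak wt peak into KO-only ones.

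Other forms of the rule gave 643 KO-only regions with no wt peak within 5000 bp, and 165 at or above the list's median score in both HDAC3 KO lists with no wt peak of any score. Counted as peaks without merging, 2730 untreated HDAC3 KO peaks overlapped an LPS-treated HDAC3 KO peak and no wt peak.

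The share of KO-only regions with the longer HDAC3 KO flank in both treatments exceeded that of all merged regions under each setting, all of them chosen after seeing the data. It was 42.7% against 22.3% with the median score limit, 44.2% against 21.9% with the limit of 20000 peaks, 40.3% against 22.6% with joined peaks, 50.2% against 27.5% with the flank counted from 1 kb outwards, 67.7% against 42.4% with 50 kb on each side, 46.2% against 20.3% after division by total covered length, and 48.2% against 27.0% without peaks inside other KO-only and wt-only regions.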
